A study of Mus musculus with 208 samples.

Results

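Medium spiny neuron genes were followed in nuclear RNA of sorted neurons: the dopamine receptors Drd1, Drd2 and Drd3, the adenosine receptor Adora2a, the signalling genes Ppp1r1b, Rgs9 and Pde10a, the neuropeptide precursor Tac1 and the orphan receptor Gpr6. These 9 genes were taken by their symbols, as rows of the count and CPM tables, out of 46403 genes listed. Each library came from NeuN+ nuclei, that is nuclei sorted for a neuronal nuclear protein, of 1 region of 1 wild-type C57BL/6NTac mouse. Titles give each library a replicate code of a leading number and a number within it, such as 12-0. There were 71 codes under 18 leading numbers, and the labels do not say what the leading number stands for. Dams carried a pump with morphine (10 mg/kg per day) or saline, and their pups, raised by surrogate dams without drug, received morphine (10 mg/kg per injection) or saline during the first weeks of life. In adulthood the offspring were challenged with LPS, a bacterial cell wall product that starts an inflammatory response, or with saline, and tissue was taken 2 h later. SAL-SAL mice received saline at both stages, MOR-SAL mice perinatal morphine and adult saline, SAL-LPS mice perinatal saline and adult LPS, and MOR-LPS mice morphine and then LPS. In this order the striatum had 13, 8, 15 and 18 libraries, the prefrontal cortex (PFC) 10, 12, 10 and 16, the hippocampus 13, 12, 14 and 16, and the hypothalamus 11, 14, 12 and 14.

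Medium spiny neurons are the GABAergic projection neurons of the striatum and make up most of its neurons. They fall into a direct pathway class, which carries the D1 receptor (Drd1) and makes substance P (Tac1), and an indirect pathway class, which carries the D2 receptor (Drd2), an adenosine receptor (Adora2a) and Gpr6. D1 receptors raise and D2 receptors lower cAMP through G proteins. Ppp1r1b (DARPP-32) turns that signal into control of a phosphatase, Pde10a breaks down cyclic nucleotides, and Rgs9 speeds up the end of G protein signalling. D3 receptors (Drd3) are best known from the ventral striatum and its islands of Calleja.

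On the mm10 genome the 9 genes lie on 7 chromosomes and differ widely in length. Pde10a (chr17:8525372-8986648, plus strand) spans 461.3 kb, Rgs9 (chr11:109225355-109298129, minus strand) 72.8 kb, Drd3 (chr16:43754026-43822932, plus strand) 68.9 kb and Drd2 (chr9:49340627-49408177, plus strand) 67.6 kb. Adora2a (chr10:75316877-75334784, plus strand) spans 17.9 kb, Tac1 (chr6:7554879-7565834, plus strand) 11.0 kb, Ppp1r1b (chr11:98348404-98357796, plus strand) 9.4 kb, Drd1 (chr13:54051183-54055705, minus strand) 4.5 kb and Gpr6 (chr10:41069977-41072285, minus strand) 2.3 kb. Exons of 1700003D09Rik on the opposite strand cover 15.71% of the exon bases of Ppp1r1b, so without stated strand use some of its reads could come from that gene.

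The promoters shown are those of Drd1 and Tac1 of the direct pathway and of Drd2 and Gpr6 of the indirect pathway. Each is the 250 bases before the RefSeq transcript start (GRCm38.p6), read in the direction of transcription, with capitals for the motifs searched on both strands: the full cAMP response element (CRE) TGACGTCA, its core TGACG, the GC box GGGCGG and the TATA box TATAAA.
Drd1 (chr13:54055659-54055908, minus strand): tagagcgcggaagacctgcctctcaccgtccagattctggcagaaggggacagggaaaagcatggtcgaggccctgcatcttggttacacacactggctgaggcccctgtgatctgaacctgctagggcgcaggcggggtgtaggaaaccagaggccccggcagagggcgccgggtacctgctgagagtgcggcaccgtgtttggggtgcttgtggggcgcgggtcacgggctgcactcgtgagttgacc
Drd2 (chr9:49340153-49340402, plus strand): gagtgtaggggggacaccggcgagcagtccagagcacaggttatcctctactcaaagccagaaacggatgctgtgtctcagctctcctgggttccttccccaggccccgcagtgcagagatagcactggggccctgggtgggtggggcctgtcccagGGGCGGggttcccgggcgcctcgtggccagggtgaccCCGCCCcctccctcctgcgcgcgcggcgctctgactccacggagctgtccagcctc
Tac1 (chr6:7554811-7555060, plus strand): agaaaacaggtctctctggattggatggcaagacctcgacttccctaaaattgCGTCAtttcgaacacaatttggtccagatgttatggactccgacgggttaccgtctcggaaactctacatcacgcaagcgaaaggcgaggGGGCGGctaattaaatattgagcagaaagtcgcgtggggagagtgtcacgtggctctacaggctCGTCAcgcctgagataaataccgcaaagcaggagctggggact
Gpr6 (chr10:41072291-41072540, minus strand): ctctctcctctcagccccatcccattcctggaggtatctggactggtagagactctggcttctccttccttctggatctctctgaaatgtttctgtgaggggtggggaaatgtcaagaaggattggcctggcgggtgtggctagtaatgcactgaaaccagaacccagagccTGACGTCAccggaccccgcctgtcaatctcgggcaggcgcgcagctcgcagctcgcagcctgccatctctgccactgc
The Gpr6 window held 1 full CRE, which 1.5% of 32851 promoters of this length held. The Tac1 window held 2 CRE cores (17.8% of promoters held at least 1) and 1 GC box (32.7%), and the Drd2 window 2 GC boxes. None of these motifs lay in the Drd1 window, which belongs to the start farther upstream of 2 that RefSeq lists, and the window of the other start (chr13:54054781-54055030) held 1 GC box. RefSeq promoters were matched for 7 of the 9 genes, not for Adora2a and Ppp1r1b. A match of letters is a description and not a binding site.

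Before the levels, some libraries went against their labels. Total counts ran from 5954700 to 92945090 in the striatum, 3056648 to 21988203 in the PFC, 227025 to 24071488 in the hippocampus and 7673 to 35077048 in the hypothalamus. Under 0.5 of the region's median total were 0 striatal, 3 PFC, 2 hippocampal and 3 hypothalamic libraries. Y-linked genes, with a limit of 10 CPM in sum, went against the labelled sex in 0 striatal, 2 PFC, 4 hippocampal and 3 hypothalamic libraries. Slc17a7, the vesicular glutamate transporter of cortical and hippocampal excitatory neurons, was under 10 CPM (counts scaled to the same library total) in 9 of 48 PFC libraries, where its median was 108, and over 40 CPM in 3 of 54 striatal libraries, where its median was 4.51. It was over 100 CPM in 7 of 51 hypothalamic libraries (median 8.49). Prox1, a marker of dentate granule neurons, was under 50 CPM in 10 of 55 hippocampal libraries (median 127). It also reached 144.7 CPM in striatal SAL-LPS 4-0 and 175.2 CPM in hypothalamic SAL-SAL 10-3. Low Prox1 stands for few dentate granule neurons and does not by itself put the region in doubt. These libraries are nevertheless counted below among those with region markers against the label. Of 8 hypothalamic neuron markers, Avp, Oxt and Nr5a1 had a median under 1 CPM in the hypothalamic libraries, and the sum of all 8 ran from 0 to 298 CPM (median 48.3). These limits were set after the data had been seen, and where leaving out the libraries with sex or region markers against the label changed a call of the 9 genes, both values are given.

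In the 54 striatal libraries Pde10a was counted most, at 794 to 6580 CPM (median 2560), followed by Rgs9 at 28.3 to 1720 CPM (median 628). Among the receptors, Drd2 ran from 2.43 to 577 CPM (median 214), Drd1 from 0.494 to 308 (median 51.4), Adora2a from 0 to 420 (median 47.7) and Drd3 from 0.895 to 50.5 (median 8.75). Ppp1r1b ran from 0.402 to 538 CPM (median 42.1), Tac1 from 0 to 464 (median 47) and Gpr6 from 0 to 186 (median 16.7). The range within the striatum was wide for each gene, and a few libraries lay far below the others. Divided by exon length, the order was Pde10a (median 199 CPM per kb), Rgs9 (98.4), Drd2 (84.1), Adora2a (15.6), Ppp1r1b (14.4), Drd1 (14.2), Tac1 (13.8), Gpr6 (9.34) and Drd3 (5.11). Pde10a lay above Rgs9 in 54 of 54 libraries and Drd2 above Adora2a in 53. The middle of the order was not settled: Adora2a lay above Ppp1r1b in 25 of 54 libraries, Ppp1r1b above Drd1 in 32 and Drd1 above Tac1 in 23. This order holds for reads per exon length, and the share of reads from unspliced transcripts was not measured.

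In the PFC, with all 48 libraries, medians were 2340 CPM for Pde10a, 632 for Rgs9, 182 for Drd2, 34.8 for Drd1, 41.9 for Adora2a, 72.7 for Ppp1r1b, 40.9 for Tac1, 20.6 for Gpr6 and 8.22 for Drd3. With the libraries whose region marker went against the label left out of both regions, the striatal and PFC medians were further apart for Drd2 (222 and 138 CPM), Drd1 (53.2 and 30), Tac1 (49.8 and 35) and Adora2a (54.8 and 34), and for Ppp1r1b the PFC median was the higher (42.4 and 65.4). In the hippocampus the medians were lower for each gene: 774 CPM for Pde10a, 44.8 for Rgs9, 5.98 for Drd2, 3.1 for Drd1 and at most 4.49 for the others, with Adora2a at 0.22. In the hypothalamus Pde10a had a median of 155 CPM, Rgs9 101, Tac1 43.6, Drd2 7.62 and Drd1 3.51. Adora2a was at 0 in 32 of 51 hypothalamic libraries, and a count of 0 allows up to 3 counts in each of them. Tac1 stood out in the hypothalamus: per kb of exon it was second (12.8 CPM per kb), between Rgs9 (15.8) and Pde10a (12), and these neighbours were not separated, since Rgs9 lay above Tac1 in 32 and Tac1 above Pde10a in 27 of 51 libraries.

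**Figure D1:**
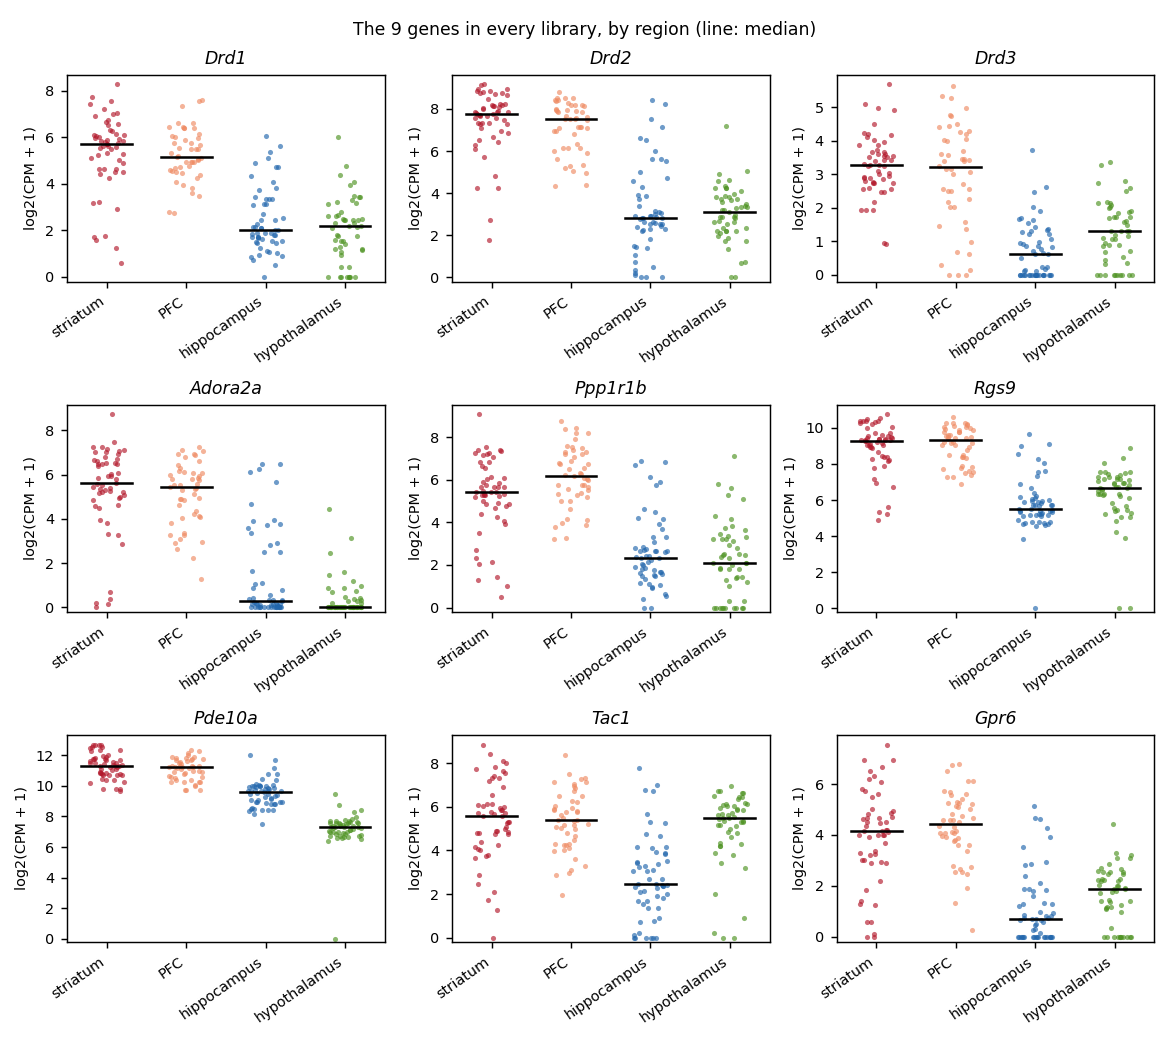
Levels of the 9 genes, log2(CPM + 1) on the vertical axis, in each striatal (54), PFC (48), hippocampal (55) and hypothalamic (51) library; each point is a library and each line the median of a region. Striatal and PFC libraries overlap widely for each gene, with medians of 214 and 182 CPM for Drd2 and of 42.1 and 72.7 CPM for Ppp1r1b, and hippocampal and hypothalamic libraries lie lower, except for Tac1 in the hypothalamus.

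Regions were compared in edgeR, a tool that models counts, over the libraries of all 4 regions with sex as a term and the mean over the 4 conditions for each region. Differences are log2 fold changes (log2FC) with their standard errors (SE), and genes with a Benjamini-Hochberg adjusted p under 0.05 over all 32841 genes tested were called. Since the 9 genes were chosen as known striatal genes, a higher level in the striatum checks the dissection and is no finding. In bulk libraries such as these, fewer cells of a type and less RNA per cell cannot be told apart.

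Between striatum and PFC 0 of the 9 genes were called with all libraries, where 31.2% of all genes were. The estimates were 0.42 (SE 0.32, adjusted p = 0.404) for Drd2, 0.33 (SE 0.29, adjusted p = 0.537) for Drd1 and −0.68 (SE 0.35, adjusted p = 0.145) for Ppp1r1b in edgeR. Intervals were wide: the 95% confidence interval of the log2FC ran from −0.25 to 0.91 for Drd1, from −0.20 to 1.04 for Drd2 and from −1.36 to 0.01 for Ppp1r1b, and a 2-fold difference lay inside the intervals of Drd2 and Ppp1r1b. Of the 9 genes, 1 (Pde10a) had an unadjusted p under 0.05 in edgeR (log2FC 0.33, adjusted p = 0.128), and DESeq2 called 0. With all libraries limma on log2(CPM + 1) called Ppp1r1b, and a fit blocked by shared replicate code called Drd3 and Pde10a. The labels do not say that a shared code is the same mouse. Without the libraries whose region markers went against the label, Drd1 (log2FC 0.78), Drd2 (0.84), Pde10a (0.52) and Tac1 (0.89) passed the threshold as higher in the striatum than in the PFC. No p is given for them, since the limits on Slc17a7 left out PFC libraries with high levels of these genes (median Drd2 of 338 CPM, against 138 in the others) and striatal libraries with low levels (5.72 against 222), so that a larger difference follows from the exclusion itself. The marker of the other cell type moved as the labels say: Slc17a7 was lower in the striatum by a log2FC of −4.22 (SE 0.42, adjusted p = 1.38e-17). The part of striatal or cortical tissue in either set of punches was not tested.

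All 9 genes were higher in the striatum than in the hippocampus, against 17.4% of all genes. The log2FC ran from 1.97 (SE 0.16) for Pde10a to 4.17 (SE 0.45) for Adora2a, and the largest adjusted p was 2.54e-11, for Tac1. Against the hypothalamus, where 22.5% of all genes were called higher in the striatum, all 9 genes were higher as well, from 0.97 (SE 0.33, adjusted p = 0.00636) for Tac1 to 7.34 (SE 0.58) for Adora2a. Adora2a was at 0 in 32 of 51 hypothalamic libraries. Its log2FC in comparisons with the hypothalamus depends on the prior count and is no measure of size. The median log2FC over all genes was −0.47 for striatum vs hypothalamus. The Tac1 call was lost in limma on log2(CPM + 1) (0.41, adjusted p = 0.303), and also in the fit blocked by shared replicate code. PFC libraries showed the same order against the other regions: 9 of 9 genes were higher in the PFC than in the hippocampus (13.4% of all genes), and 8 of 9 than in the hypothalamus (20.8%), with Tac1 at 0.59 (SE 0.33, adjusted p = 0.114). These comparisons share libraries and are not independent of each other. Between hippocampus and hypothalamus 5 of 9 genes were called, against 62.1% of all genes in either direction: Pde10a (2.46, SE 0.17), Adora2a (3.17, SE 0.60) and Drd2 (1.33, SE 0.33) were higher in the hippocampus, and Tac1 (−1.60, SE 0.33) and Drd3 (−0.93, SE 0.36, adjusted p = 0.0168) lower.

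**Figure D2:**
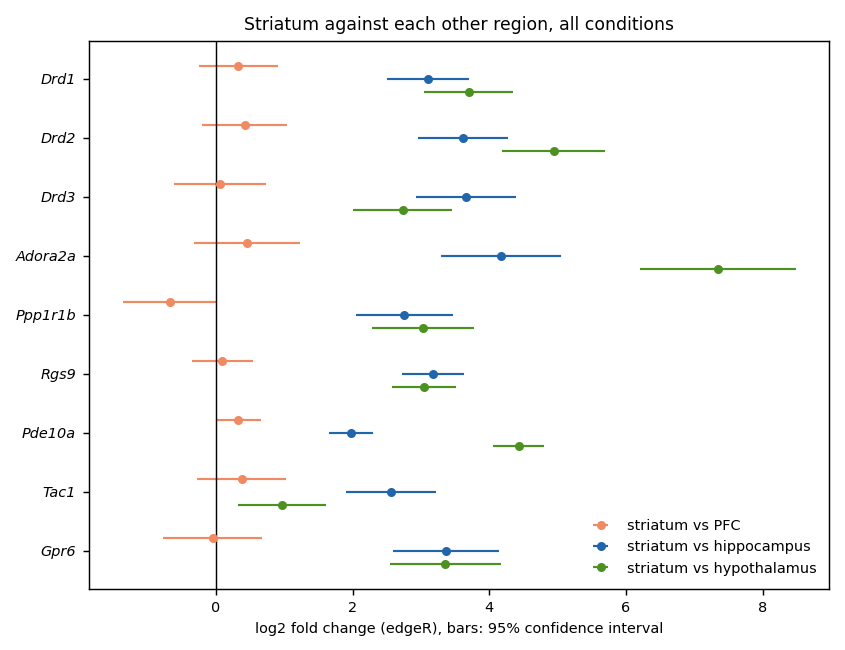
Log2 fold changes of the 9 genes between the striatum and each other region (horizontal axis), from edgeR over the libraries of all 4 regions; points are estimates and bars 95% confidence intervals. The PFC estimates lie around 0 (−0.68 to 0.45), those against the hippocampus between 1.97 and 4.17, and those against the hypothalamus between 0.97 and 7.34. The highest of these, for Adora2a, rests on few hypothalamic reads and is no measure of size.

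Other genes known from medium spiny neurons were also higher in the striatum than in the hippocampus. Of 25 striatal companion genes tested, which include transcription factors (Foxp1, Bcl11b, Rarb) and the muscarinic receptor Chrm4, 24 were higher in the striatum than in the hippocampus (median log2FC 2.13, against 0.01 over all genes), with the smallest p for Spock3 (log2FC 2.00), Pde1b (2.02) and Rarb (3.25). Of all genes 17.4% were higher and 10.9% lower in this comparison. Against the PFC 5 companions were higher and 5 lower (median −0.03), where 19.2% of all genes were higher and 11.9% lower, with Spock3 (1.08) and Isl1 (1.26) among the higher and Bcl11b (−0.77) and Lrrc10b (−1.02) among the lower. Of 24 genes of dopamine and cAMP signalling, 13 were higher and 5 lower in the striatum than in the hippocampus (median 0.41). Adcy5, the main adenylyl cyclase of the striatum, was higher there by 2.94 (SE 0.20), and the G protein subunit gene Gnal by 1.68 (SE 0.14), whereas the D5 receptor gene Drd5 was lower (log2FC −2.39, SE 0.48). Drd4 had a median of 0 CPM in each region. Genes of dopamine neurons were lower in the striatum than in the hypothalamus: Th, the rate-limiting enzyme of dopamine synthesis, had a median of 44.3 CPM there against 4.44 in the striatum (log2FC −3.39, SE 0.40), and 5 of 5 genes of this group were lower, against 41.2% of all genes.

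Libraries of different regions that carry the same replicate code and condition can be set side by side, although the labels do not say that they came from the same mouse. For 42 codes found in both regions, the striatal CPM was higher than the hippocampal one in 34 for Ppp1r1b, the fewest, and in 41 for Drd3, the most. Against the hypothalamus, with 37 codes, the striatal level was higher in 30 (Gpr6) to 37 (Pde10a) for all genes but Tac1, for which it was higher in 16. Striatum and PFC were in no fixed order: of 35 codes, the striatal level was higher in 14 for Ppp1r1b, 18 for Gpr6, 19 for Tac1, 22 for Drd1 and for Rgs9, 23 for Drd2 and for Pde10a, 24 for Drd3 and 25 for Adora2a. Across these 35 codes striatal and PFC levels on the log2(CPM + 1) scale had an r of −0.43 for Drd1 (rho −0.48, permutation p = 0.00958 and 0.00325, r −0.40 without the 2 farthest codes, −0.41 within conditions) and −0.35 for Drd2 (rho −0.33, permutation p = 0.0369 and 0.0506, r −0.35 without the 2 farthest codes, −0.40 within conditions). Neither passed the adjustment over 27 tests of 9 genes in 3 pairs of regions, with adjusted p for r of 0.259 and 0.499 and for rho of 0.0877 and 0.636. The other 25 values of r lay between −0.24 and 0.22. Slc17a7 was higher in the striatal than in the PFC library in 5 of the 35 codes. It went against the label in the striatal library of 1 code and in the PFC library of 5 codes, and in both libraries of 0 codes. Whether single libraries carry the label of another region was not tested beyond these markers, and the striatal and PFC levels, the comparison between them and the values of r hold only as far as the region labels do.

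Levels also differed between libraries of the same region, and the genes went up and down together. As a description, a library's level was taken as the mean over the 9 genes of the z-score of log2(normalized CPM + 1). In the striatum the lowest libraries were SAL-SAL 3-4 and 3-2, with Drd2 at 5.72 and 2.43 CPM, Drd1 at 2.03 and 6.65 CPM and Slc17a7 at 103 and 78.5 CPM. These were the highest Slc17a7 values of the striatum. SAL-LPS 1-2, MOR-LPS 14-4 and MOR-LPS 15-1 were also low, with Drd1 at 0.494, 1.34 and 2.28 CPM, but with Slc17a7 at 6.43, 1.62 and 4.02 CPM. The highest library was SAL-SAL 5-3, with Drd1 at 308, Adora2a at 420, Ppp1r1b at 538 and Tac1 at 464 CPM, each the highest striatal value of its gene. In the hippocampus 6 libraries lay far above the rest, 4 of them SAL-LPS. Library SAL-LPS 1-2 had Drd2 at 340 CPM, Adora2a at 89.3 CPM and Pde10a at 4040 CPM, all above its striatal median, with Prox1 at 5.74 CPM, the lowest of the region. The striatal library of the same code was among the lowest of its own region. In the hypothalamus the 3 highest libraries were SAL-LPS 10-0, MOR-SAL 12-1 and MOR-SAL 15-0, with Rgs9 at 464, 324 and 264 CPM. These were also the 3 hypothalamic libraries labelled female with more than 10 CPM of Y-linked genes, at 98.0, 33.1 and 81.1 CPM.

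Across libraries the level of the 9 genes was lower where Slc17a7 was higher. Pearson's r between that level and log2(normalized CPM + 1) of Slc17a7 was −0.51 in 54 striatal libraries (Spearman's rho −0.48), −0.36 in 55 hippocampal libraries (rho −0.38) and −0.21 in 51 hypothalamic libraries (rho −0.27). Without the 2 libraries farthest from the median of Slc17a7 the values were −0.32, −0.41 and −0.17, and after centring within conditions −0.52, −0.29 and −0.18. The PFC libraries formed separate clusters, and r over all of them is not given here. In the 39 with Slc17a7 of at least 10 CPM r was −0.60 (rho −0.60), −0.53 without the 2 farthest libraries and −0.62 within conditions. That limit on Slc17a7 was set after the data had been seen. No p is given, since the score joins genes chosen with results of these data known. The 9 PFC libraries with less Slc17a7 had a median Drd2 of 338 CPM and Drd1 of 82.3 CPM, the other 39 a median of 138 and 30 CPM. The lowest of those 39 values, 19.4 CPM for Drd2 and 5.71 CPM for Drd1, lay above the hippocampal medians. With the neuronal gene Rbfox3 r was 0.14 in the striatum, 0.27 in the hippocampus and 0.22 in the hypothalamus, and the PFC value is not given here.

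**Figure D3:**
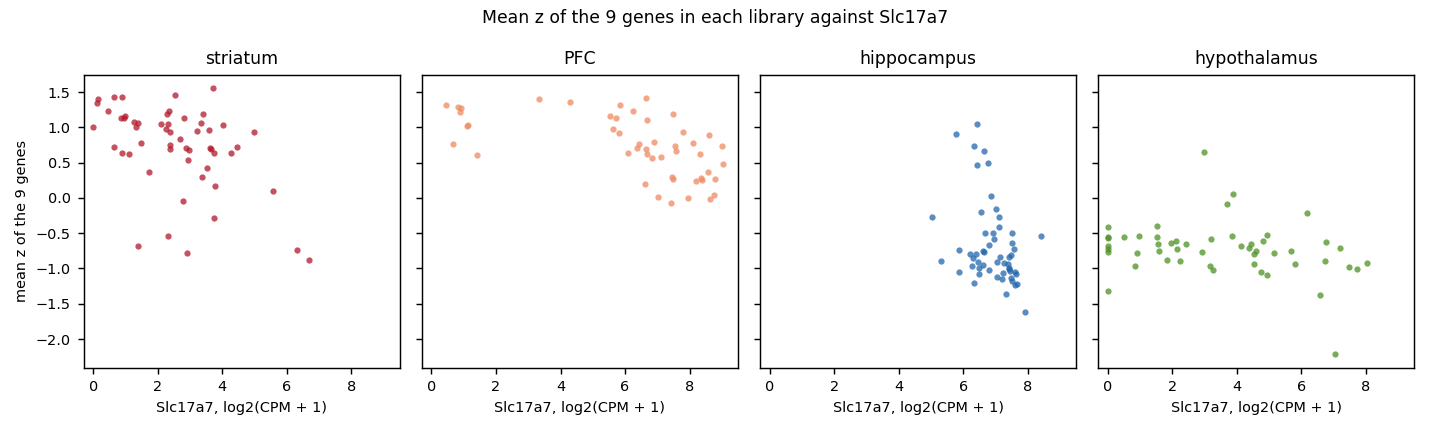
Mean z-score of the 9 genes (vertical axis) against Slc17a7, log2(CPM + 1) (horizontal axis), in each region; each point is a library. Striatal libraries with the most Slc17a7 lie low, and in the PFC a group of 9 libraries lies apart at low Slc17a7 and high scores.

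Between pairs of genes the striatal correlations are given by gene length, a split made after the values were seen. Among the shorter genes Drd1, Ppp1r1b, Tac1, Gpr6 and Adora2a the 10 Pearson correlations across 54 striatal libraries ran from 0.79 to 0.95 (median 0.93), and among the longer genes Drd2, Rgs9 and Pde10a the 3 correlations ran from 0.86 to 0.94. The 15 pairs of a shorter with a longer gene reached 0.31 to 0.92 (median 0.66). Drd3, which also spans a long stretch, correlated with the others at 0.10 to 0.53. Tac1 reached 0.87 with Drd1, the other direct pathway gene, and 0.95 with Gpr6 of the indirect pathway. Adora2a reached 0.83 with Drd2 of its own class. Drd1 and Adora2a reached r = 0.93 (rho 0.87, 0.90 without the 2 farthest libraries, 0.93 within conditions), with a permutation p of 1e-05, the smallest that the resamples drawn can give, and an adjusted p of 1.57e-05 over 36 pairs. Drd1 and Drd2 reached 0.73 (rho 0.51, 0.68 without the 2 farthest libraries, 0.75 within conditions, permutation p = 1e-05, adjusted p = 1.57e-05). In the PFC the same groups had ranges of 0.44 to 0.78, 0.74 to 0.89 and 0.09 to 0.73, and Drd3 0.12 to 0.44. These pairs share their libraries, and the part of tissue content in them was not tested.

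The balance of the classes, given as Drd1 counts in percent of Drd1 plus Drd2 counts, had a median of 16.1% in the striatum and ran from 1.78% to 73.2%. The highest value came from SAL-SAL 3-2, one of the 3 libraries with Slc17a7 over 40 CPM, where both receptor genes were low (6.65 CPM for Drd1 and 2.43 CPM for Drd2). The median was 24.7% in SAL-SAL (10.4% to 73.2%), 10.5% in MOR-SAL (8.5% to 40.1%), 16.9% in SAL-LPS (1.78% to 56.6%) and 15.5% in MOR-LPS (6.88% to 55.8%). The 4 ranges overlapped widely. Without the 3 libraries the striatal median was 16% (1.78% to 56.6%), that of SAL-SAL 20.4% (10.4% to 50.6%) and that of MOR-LPS 15% (6.88% to 55.8%). In the PFC the median was 19.6% (8.88% to 47.2%) with all libraries, and 19.6% over the same range without the 9 libraries with Slc17a7 under 10 CPM. The percentage is one of reads, not of cells, and Drd2 is 67.6 kb long against 4.5 kb for Drd1.

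Over the libraries of all 4 regions genes among the most like the mean z-score of the 9, among 10983 genes with a mean of at least 5 normalized CPM in the striatum, were Sh3rf2 (r = 0.946), Adcy5 (0.934), Serpina9 (0.928), Penk (0.915), Syndig1l (0.914), RP23-15K8.1 (0.913) and Cpne5 (0.911). Penk encodes enkephalin, the opioid peptide precursor of the indirect pathway. Within the 54 striatal libraries the most alike were Serpina9 (0.963), Sh3rf2 (0.942), Pde1b (0.941), Gnal (0.938), Rasd2 (0.937), Sv2c (0.933), Lingo3 (0.928) and Gm9989 (0.926). Sh3rf2 and Serpina9 were in both groups of names. These values are a description over libraries that share region and tissue content.

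The first question about condition was whether perinatal morphine or adult LPS changed these genes in the striatum itself. Drd1 ran from 2.03 to 308 CPM in SAL-SAL (median 53.2), from 8.41 to 98.5 in MOR-SAL (51.6), from 0.494 to 207.6 in SAL-LPS (51.7) and from 1.34 to 169 in MOR-LPS (48.3). The 4 medians lay close together and the ranges overlapped. Drd2 medians were 191, 226, 215 and 210 CPM in the same order, and those of Adora2a 54.8, 53.3, 56.6 and 42. Pde10a had medians of 2350, 3320, 2500 and 2550 CPM and Rgs9 of 650, 714, 647 and 536 CPM. All groups overlapped for each of the 9 genes. Without the 3 libraries with Slc17a7 over 40 CPM, 2 of them SAL-SAL and 1 MOR-LPS, the SAL-SAL medians were 58.7 CPM for Drd1, 229 for Drd2 and 81.6 for Adora2a, those of MOR-LPS were 48.6, 214 and 47, and 0 of the 9 genes were called in any of the comparisons that follow.

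No striatal gene of the 9 was called in any comparison of conditions. The fit in edgeR had terms for condition and sex and covered 23426 genes. With perinatal morphine against saline, 0 of 9 were called in mice given adult saline (MOR-SAL vs SAL-SAL, 0% of all genes called, in either direction) or in mice given LPS (MOR-LPS vs SAL-LPS, 0%). With LPS against saline, 0 of 9 were called after perinatal saline (SAL-LPS vs SAL-SAL, 0.0128% of all genes) or after morphine (MOR-LPS vs MOR-SAL, 1.39%). The interaction, which is the difference between these LPS responses, also gave 0 of 9 (0.00854%). DESeq2 called 0 of 9 in each as well. At an unadjusted p under 0.05 in edgeR there were 0, 0, 0, 2 and 1 of the 9 genes, where 11.5%, 11.2%, 11.7%, 17.8% and 14.8% of all genes were. These were Rgs9 (log2FC −0.95, SE 0.46, adjusted p = 0.268) and Pde10a (−0.78, SE 0.35, adjusted p = 0.236) for MOR-LPS vs MOR-SAL, and Pde10a for the interaction (−1.18, SE 0.49, adjusted p = 0.24). The precision was limited: for Drd1 the 95% confidence interval of MOR-SAL vs SAL-SAL ran from −1.65 to 0.83 and for Drd2 from −0.42 to 1.74. For SAL-LPS vs SAL-SAL the Drd1 estimate was 0.00 (−1.07 to 1.07) and that of Drd2 0.30 (−0.64 to 1.23). Each of these 4 intervals held a 2-fold change in at least 1 direction. On simulated counts edgeR recovered 7% of genes changed by a log2FC of 1 and 84% of those changed by 2 (MOR-SAL vs SAL-SAL). The simulated spread followed a set formula of the mean count and was not fitted to these libraries. These shares therefore need not hold for the 9 genes.

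**Figure D4:**
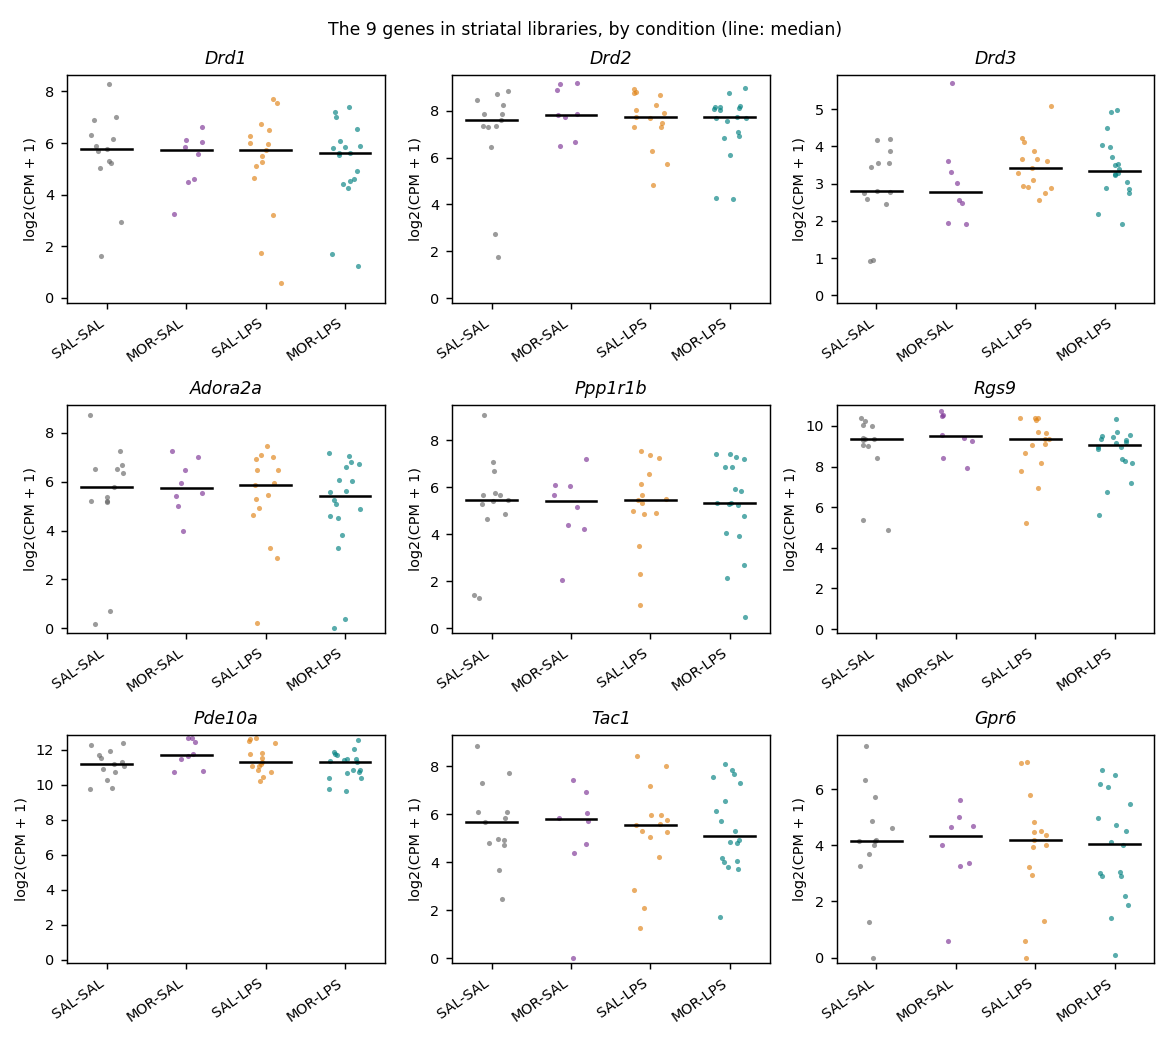
Levels of the 9 genes, log2(CPM + 1) on the vertical axis, in the striatal libraries of each condition (13 SAL-SAL, 8 MOR-SAL, 15 SAL-LPS, 18 MOR-LPS); each point is a library and each line a median. The 4 conditions overlap for each gene, and low libraries occur in each of them for Ppp1r1b. Medians of Drd1 lie close together, and those of Tac1 run from 33.8 CPM in MOR-LPS to 54.2 CPM in MOR-SAL.

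The genes of the pathway around the 9 were tested in the same striatal fits. Of 25 striatal companions 0 were called in any of the 5 comparisons. The calls covered between 0% and 1.39% of all genes in these comparisons. The companions' median log2FC for MOR-LPS vs MOR-SAL was −0.48, against 0.11 over all genes, and for the interaction −0.69, against 0.12. Of 23 genes of dopamine and cAMP signalling tested, 1 fell for MOR-LPS vs MOR-SAL, Rgs7bp, which anchors Rgs9 at the membrane (log2FC −0.76, SE 0.18, adjusted p = 0.0269), where 0.542% of all genes fell and 0.845% rose. Of 5 genes of dopamine neurons 1 rose in that comparison, Ddc, the enzyme after Th (2.12, SE 0.54, adjusted p = 0.0346). In the same comparison 3 of 4 astrocyte markers tested (Aldh1l1, Aqp4 and Slc1a3) and 1 of 4 microglial markers (C1qa) rose, and the summed astrocyte markers ran from 14.6 to 43.1 CPM in MOR-SAL and from 24.2 to 353 CPM in MOR-LPS. Of 6 oligodendrocyte markers 0 were called, with a median log2FC of 1.21 and sums of 184 to 1270 CPM in MOR-SAL and 166 to 5730 CPM in MOR-LPS. The part of glial RNA in these values was not tested.

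In the PFC 0 of 9 genes were called in any comparison, over 21729 genes. Of all genes, 0% were called for MOR-SAL vs SAL-SAL and 0.0046% for MOR-LPS vs SAL-LPS. The share was 0% for SAL-LPS vs SAL-SAL, 0.0184% for MOR-LPS vs MOR-SAL and 1.78% for the interaction. DESeq2 called 0 of 9, and 0 of 9 had an unadjusted p under 0.05 in edgeR, where between 10.1% and 13.2% of all genes had. The highest and lowest estimates were 0.86 (SE 0.58, adjusted p = 0.692) for Drd1 and −0.73 (SE 0.51, adjusted p = 0.722) for Rgs9, both in the interaction. Drd1 medians were 37.2, 30.3, 41.6 and 49.3 CPM in the order given above, and those of Drd2 145, 182, 194 and 161 CPM. The ranges of all 4 groups overlapped.

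In the hippocampus most of the 9 genes had lower estimates in MOR-LPS than in SAL-LPS, without a call. For MOR-LPS vs SAL-LPS 8 of 9 genes had an unadjusted p under 0.05 in edgeR, all with a negative log2FC, where 17% of all genes had such a p, and 0 of 9 passed the adjusted threshold over 22076 genes (2.73% of all genes did). The smallest adjusted p was 0.075, for Tac1 (log2FC −2.24, SE 0.74), followed by Rgs9 (−1.37, SE 0.46, adjusted p = 0.0782). Rgs9 ran from 24.9 to 824 CPM in SAL-LPS (median 65.6) and from 13.2 to 263 CPM in MOR-LPS (median 58.7), so the medians lay close together while the highest SAL-LPS values lay far above those of MOR-LPS. Drd2 ran from 0 to 340 CPM in SAL-LPS (median 8.4) and from 0 to 92.1 CPM in MOR-LPS (median 6.08). Without the 10 libraries of low Prox1 the Rgs9 estimate was −0.42 (SE 0.36) and that of Drd1 turned from −1.25 to 0.28 (SE 0.56). This left 9 of 14 SAL-LPS and 15 of 16 MOR-LPS libraries. No p is given, since the libraries left out had higher levels of most of the 9 genes (median Drd2 of 22.2 CPM, against 5.83 in the others). A change of the estimates thus follows in part from the exclusion itself. Leading number 12 held the MOR-LPS libraries 12-0 and 12-2, with Rgs9 at 263 and 184 CPM, and without it Drd1, Ppp1r1b and Rgs9 were called (log2FC −1.92, −2.26 and −1.81, with adjusted p of 0.0458, 0.0493 and 0.0291). Leaving it out removed the highest Rgs9 value of MOR-LPS, so a larger difference follows in part from that. It is named out of 18 numbers left out in turn, and the share of all genes called in that fit is not given here.

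The remaining hippocampal comparisons also gave 0 of 9 calls in edgeR and in DESeq2. All genes were called at 0% for MOR-SAL vs SAL-SAL, 2.55% for SAL-LPS vs SAL-SAL, 0.467% for MOR-LPS vs MOR-SAL and 2.35% for the interaction, and 3, 4, 3 and 0 of the 9 genes had an unadjusted p under 0.05, where 10.3%, 17.5%, 14.3% and 12.8% of all genes had. For SAL-LPS vs SAL-SAL all 9 estimates were above 0 (0.32 to 1.88), and for MOR-SAL vs SAL-SAL 0 of 9 were (−4.72 to −0.23). For MOR-LPS vs MOR-SAL 8 of 9 were above 0 (−0.12 to 4.14) and for the interaction 3 of 9 (−2.01 to 2.56). Leading number 5 held the SAL-SAL libraries 5-3, with Drd2 at 302 CPM and Prox1 at 39.5 CPM, and 5-1, with Drd2 at 7.26 CPM, besides SAL-LPS 5-2. Without that number Drd1 (2.31), Drd2 (3.76), Adora2a (4.01), Ppp1r1b (2.92) and Rgs9 (2.24) were called higher in SAL-LPS, with adjusted p from 0.0311 to 0.0486. Leaving it out removed the highest Drd2 value of SAL-SAL, so a larger difference follows in part from that. The share of all genes called in that fit is not given here. Without the libraries of low Prox1 0 of the 9 genes were called. Those libraries had higher levels of most of the 9 genes (median Adora2a of 10.1 CPM, against 0.147 in the others), so no p is given. Of the dopamine neuron genes, Slc6a3, the dopamine transporter, was called in the interaction (log2FC −5.84, SE 1.49, adjusted p = 0.0199), with a median of 0 CPM in the region.

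In the hypothalamus 2 of the 9 genes passed the test in a comparison of conditions, Rgs9 and Adora2a. Rgs9 ran from 0 to 165 CPM in SAL-SAL (median 79.6), from 78.4 to 324 in MOR-SAL (median 163), from 0 to 464 in SAL-LPS (median 114) and from 32.6 to 124 in MOR-LPS (median 65). By the medians of all libraries MOR-SAL was the highest group and MOR-LPS the lowest, and the groups overlapped between 78.4 and 124 CPM. Without the libraries of high Slc17a7 the lowest median was that of SAL-SAL (79.6 CPM), as described below. For MOR-LPS vs MOR-SAL Rgs9 fell by 1.12 on the log2 scale (SE 0.29, adjusted p = 0.0145, edgeR over 28859 genes), the only call among the 9 where 6.27% of all genes were called. Pde10a had medians of 137, 186, 154 and 123 CPM in the same order and a log2FC for MOR-LPS vs MOR-SAL of −0.65 (SE 0.22, adjusted p = 0.0601). For the interaction, with 3.8% of all genes called, Rgs9 had a log2FC of −1.93 (SE 0.46, adjusted p = 0.00997), where the LPS estimate was 0.80 (SE 0.35, adjusted p = 0.255) after perinatal saline and negative after morphine. The Pde10a estimate of the interaction was −1.02 (SE 0.33, adjusted p = 0.0657).

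Adora2a was also called for the interaction (log2FC −5.85, SE 1.61, adjusted p = 0.0248), and it rests on few reads. It was at 0 in 10 of 11 SAL-SAL libraries, and the remaining one had 0.624 CPM. It was at 0 in 6 of 14 MOR-SAL (up to 7.71 CPM), 7 of 12 SAL-LPS (up to 20.7 CPM) and 9 of 14 MOR-LPS libraries (up to 2.03 CPM). The fitted log2FC of so sparse a gene depends on the prior count and is no measure of size. DESeq2 gave it no adjusted p, and without the 3 libraries whose Y-linked genes went against the label it was not called (−2.59, adjusted p = 0.931). The highest values, 20.7, 7.71 and 4.52 CPM, were those 3 libraries.

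The remaining hypothalamic comparisons gave 0 of 9 calls in edgeR and in DESeq2: MOR-SAL vs SAL-SAL with 1.44% of all genes called, MOR-LPS vs SAL-LPS with 1.03% and SAL-LPS vs SAL-SAL with 0.246%. At an unadjusted p under 0.05 there were 2, 3 and 4 of the 9 genes, where 17.3%, 13.9% and 14% of all genes were. Pde10a for MOR-LPS vs SAL-LPS came closest (log2FC −0.84, SE 0.23, adjusted p = 0.0518), and Rgs9 for MOR-SAL vs SAL-SAL was at 0.93 (SE 0.32, adjusted p = 0.103). For MOR-LPS vs SAL-LPS the cortical excitatory marker Camk2a (1.12) and the hippocampal neuron markers Dsp (7.06) and Zbtb20 (1.09) rose. The part of RNA from other tissue in the Pde10a value was not tested. The dopamine receptors were not called in any of the 5 hypothalamic comparisons. Drd1 had an unadjusted p under 0.05 for SAL-LPS vs SAL-SAL (log2FC 1.99, SE 0.80, adjusted p = 0.199) and for the interaction (−2.14, SE 1.06, adjusted p = 0.314). Its other estimates were 1.2 (SE 0.74) for MOR-SAL vs SAL-SAL, −0.94 (SE 0.74) for MOR-LPS vs SAL-LPS and −0.14 (SE 0.67) for MOR-LPS vs MOR-SAL. The estimates ran from −0.37 to −0.05 for Drd2 and from −0.61 to 0.93 for Drd3.

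The Rgs9 values depended on the libraries kept. Without the 3 libraries with Y-linked counts against the label, which were the highest, Rgs9 ran from 78.4 to 190 CPM in MOR-SAL (n = 12) and from 0 to 155 CPM in SAL-LPS (n = 11), and it was called for MOR-LPS vs MOR-SAL (log2FC −0.94, adjusted p = 0.0351) and for the interaction (−1.42, adjusted p = 0.0384). Of the 14 MOR-LPS libraries 6 had Slc17a7 over 100 CPM. Without these and 1 SAL-LPS library, which had 7673 counts in all, Rgs9 had a median of 95.1 CPM in 8 MOR-LPS libraries (36 to 124 CPM). That median lay above the 79.6 CPM of SAL-SAL. MOR-LPS vs MOR-SAL was then no longer called for Rgs9 (−0.83), whereas the interaction was (−1.71), as it was for Pde10a (−1.24). No p is given, since the libraries left out, most of them MOR-LPS, had lower Rgs9 (median 43 CPM, against 109 in the others). A change of the estimates thus follows in part from the exclusion itself. Without leading number 15 or 16 Rgs9 was not called for MOR-LPS vs MOR-SAL, with an adjusted p of up to 0.0549, and without number 10, that of the highest library, not for the interaction (−1.26, adjusted p = 0.0814). With the leading number as a correlation in limma, whose voom step models counts, Rgs9 was not called for the interaction (−1.44, adjusted p = 0.214), nor in males alone (−0.61, adjusted p = 0.78). For MOR-LPS vs MOR-SAL, with all libraries, 5 of 6 markers of cortical excitatory neurons rose by edgeR: Slc17a7 (log2FC 3.35, SE 0.76), Neurod6 (3.34, SE 0.73), Neurod2 (3.09, SE 0.83), Emx1 (4.20, SE 1.18) and Camk2a (1.25, SE 0.27). Their sum with Nrn1 ran from 218 to 559 CPM in MOR-SAL and from 235 to 2710 CPM in MOR-LPS. In that comparison 4 of 5 astrocyte markers rose, with sums of 13.2 to 45.1 CPM in MOR-SAL and 14.6 to 618 CPM in MOR-LPS, and 5 of 6 oligodendrocyte markers rose, with sums of 76.3 to 695 and 216 to 6800 CPM. Of 5 microglial markers 2 rose, C1qa (3.04) and Csf1r (1.82), and of 6 hippocampal neuron markers 1, Zbtb20 (0.98). Of 7 interneuron markers Gad2, an enzyme of GABA synthesis, fell by 0.73 on the log2 scale (SE 0.22, adjusted p = 0.0313) and Vip rose (4.85, SE 1.01), and 0 of 8 hypothalamic neuron markers were called. For the interaction the positive calls were 1 of 6 cortical markers (Camk2a), 2 of 5 astrocyte markers, 5 of 6 oligodendrocyte markers, Csf1r (2.98), Vip (5.70) and the choroid plexus gene Ttr (7.68). The negative calls were Gad2 (−1.08, SE 0.33, adjusted p = 0.044) and the hypothalamic neuron marker Pomc, a peptide precursor gene (−4.19, SE 1.26, adjusted p = 0.0431). The part of RNA from other cells or neighbouring tissue in the Rgs9 value was not tested.

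**Figure D5:**
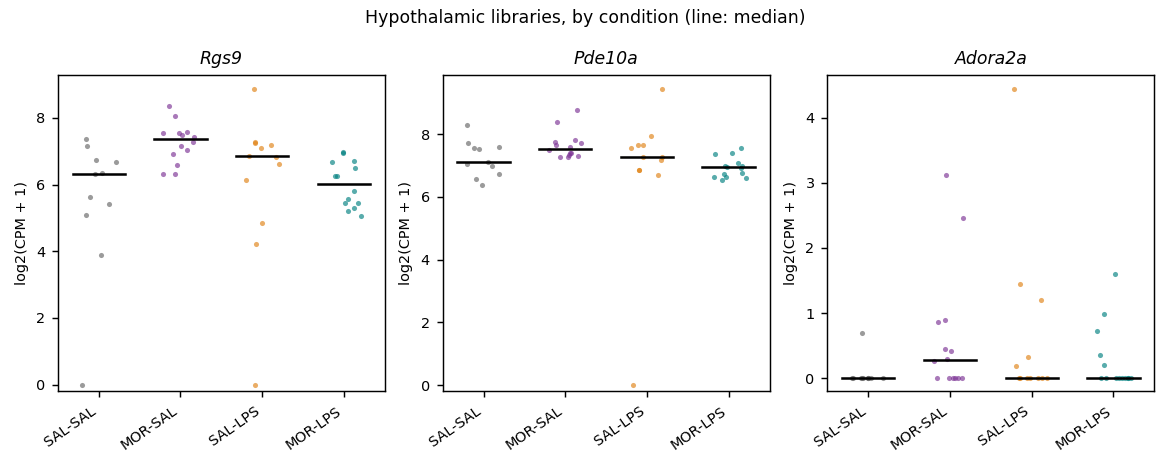
Rgs9, Pde10a and Adora2a, log2(CPM + 1) on the vertical axis, in the hypothalamic libraries of each condition (11 SAL-SAL, 14 MOR-SAL, 12 SAL-LPS, 14 MOR-LPS); each point is a library and each line a median. Rgs9 medians run from 163 CPM in MOR-SAL to 65 CPM in MOR-LPS, and most Adora2a values lie at 0.

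Among the genes around them in the hypothalamus, 2 of 25 striatal companions fell for MOR-LPS vs MOR-SAL, Rasgrp2 (log2FC −0.87, SE 0.27, adjusted p = 0.0383) and Spock3 (−0.61, SE 0.18, adjusted p = 0.0282), with a median of −0.32 over the companions against 0.00 over all genes, of which 2.17% fell and 4.1% rose. Of 24 genes of dopamine and cAMP signalling 2 rose, the A1 adenosine receptor Adora1 (0.98, SE 0.28) and the calcineurin subunit Ppp3ca (0.99, SE 0.22). Rgs7bp was called in the interaction in the opposite direction to Rgs9 (1.10, SE 0.33, adjusted p = 0.0388). For MOR-SAL vs SAL-SAL the protein kinase A subunit Prkar1b rose (0.67, SE 0.17, adjusted p = 0.0298), where 0.27% of all genes rose and 1.17% fell. In that comparison the oligodendrocyte marker Mobp (−2.20) and the endothelium and choroid plexus markers Ttr (−6.02) and Folr1 (−4.70) fell. Of 5 dopamine neuron genes 0 were called in any hypothalamic comparison.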

How the data were processed

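Nuclear RNA of sorted NeuN+ nuclei was measured in libraries of 4 brain regions, prepared with a modified Smart-seq3 method. Per the labels, the authors trimmed reads with Trim Galore 0.6.7 and aligned them to mm10 with STAR 2.7.10a; per the study's methods STAR also counted reads per gene and HTSeq 0.12.4 served as a check, while the use of strand in counting is not given in the sources used here. The authors deposited raw counts for 46403 genes and CPM (counts scaled to the same library total) for 46366, without 37 mitochondrial genes. Recomputed from the counts, the deposited CPM differed by at most 5.68e-14. The authors' own comparisons were run in DESeq2 1.40.2.

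The 9 genes and the gene lists were chosen with earlier results of these data known. Within each region, genes with a total count over 10 were tested in edgeR 4.0.16 (R 4.3.3) by the quasi-likelihood test with TMM scaling, the 4 conditions and sex as terms, and Benjamini-Hochberg adjustment over all genes at 0.05. All 9 genes passed this filter in each region. Regions were compared in 1 fit of 16 region and condition groups and sex, with dispersions following the trend over expression. Replicates within a region were separate animals. The number before the hyphen of the replicate code was used to leave out groups of libraries and as a correlation; the labels do not say whether it marks a litter, a cage or anything else. Alternatives used DESeq2 1.42.0, limma 3.58.1 and the settings listed in the closing section. Correlations were tested by permutation. Named genes were the 9 genes, called members of the fixed lists, and the 8 genes most like the 9, of which 1 is not reported here. Confidence intervals come from the fit and include the spread between animals; the floor for a count of 0 covers counting error only.

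The fits were tested on simulated data, whose spread followed a set formula of the mean count and was not fitted to these libraries. For MOR-SAL vs SAL-SAL, edgeR recovered 7% (striatum), 8% (PFC), 14% (hippocampus) and 9% (hypothalamus) of genes changed by a log2FC of 1, and 84%, 85%, 88% and 79% of those changed by 2, in 23036, 21444, 21767 and 28412 genes. For striatum vs PFC it recovered 99% and 100% in 6000 genes. Pairs of libraries within a region differed by more than sampling noise in each pair tested; the hypothalamic library with 7673 counts was too shallow for this test.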

Additional observations from a re-analysis of the deposited data

Results flagged for a closer look

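Single libraries stood far from the rest of their group in 5 of 27 gene and group combinations with 4 to 10 libraries, by a test that chance alone sets off in about 1 in 20 groups of normally distributed values. Whether that rate holds for CPM was not tested. In the striatum, Drd3 was at 50.5 CPM in MOR-SAL 15-2 (the nearest library was at 11.1 CPM) and Ppp1r1b at 144 CPM in MOR-SAL 14-1 (nearest 66.9 CPM). In the PFC, Drd3 was at 30.6 CPM in SAL-LPS 10-0 (nearest 15.3 CPM) and Ppp1r1b at 293 CPM in SAL-SAL 4-3 (nearest 133 CPM). Tac1 was at 337 CPM in PFC SAL-LPS 1-0 (nearest 157 CPM), which was also one of the 9 PFC libraries with Slc17a7 under 10 CPM.

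In the hypothalamus the LPS response differed between perinatal morphine and saline for Rgs9 (difference in log2FC −1.93, SE 0.46, adjusted p = 0.00997) and Adora2a (−5.85, SE 1.61, adjusted p = 0.0248) by the interaction term in edgeR. The Adora2a value rests on 10 of 11 SAL-SAL libraries at 0, and Adora2a was not called without the 3 libraries whose Y-linked genes went against the label (adjusted p = 0.931). Neither gene was called with the leading replicate number as a correlation in limma, in limma on log2(CPM + 1) or log2(CPM + 0.1), or in males alone.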

How the results depend on the processing

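Between 12 and 15 alternatives were run for each count of called genes, besides leaving out each leading replicate number, and none reversed a direction that had been called. Of 19 comparisons with 0 of the 9 genes called, 4 had a call under any alternative other than a left-out number. For striatum vs PFC the replicate block by shared replicate code gave 2 calls (Drd3, Pde10a), limma on log2(CPM + 1) gave 1 (Ppp1r1b) and leaving out the libraries with markers against the label, which also differed in the levels of the 9 genes, gave 4. The block took the Tac1 call of striatum vs hypothalamus (0.55, adjusted p = 0.249) and no other named call. The labels do not say that a shared code is the same mouse, and deviations from group means correlated at a median r of −0.005 to 0.094 between libraries of the same code, with 16 of 35 codes over 0.1 for striatum and PFC. For MOR-LPS vs SAL-LPS a fit without sex gave 1 call in the hippocampus (Tac1) and 2 in the hypothalamus (Rgs9, Pde10a), and females alone gave 1 for MOR-SAL vs SAL-SAL in the hypothalamus (Rgs9, log2FC 1.93). For hypothalamic MOR-LPS vs MOR-SAL there were 2 calls (Rgs9, Pde10a) with library size alone, without sex, with only the groups compared and without low-depth libraries, and 0 with limma at pseudocounts of 1 and 0.1, in females or males alone and without marker-mismatched libraries. For the hypothalamic interaction there was 1 call with DESeq2, with edgeR's expression filter, in females and without sex-mismatched libraries, and 0 with the leading number as a correlation in limma, both limma fits on CPM and in males. The cause of these changes was not tested. With each leading number left out in turn, called genes ranged from 0 to 3 (hippocampal MOR-LPS vs SAL-LPS), 0 to 5 (hippocampal SAL-LPS vs SAL-SAL), 0 to 1 (hypothalamic MOR-SAL vs SAL-SAL), 0 to 2 (hypothalamic MOR-LPS vs MOR-SAL) and 1 to 2 (hypothalamic interaction). Rgs9 gained a hippocampal call for MOR-LPS vs SAL-LPS without number 2 (log2FC −1.52) or 5 (−1.44), besides 12, and a hypothalamic call for MOR-SAL vs SAL-SAL without number 1 (1.31). Without number 4 or 10 Pde10a gained the hypothalamic call for MOR-LPS vs MOR-SAL, and without number 10 it was the only one called for the interaction (−1.09). Settings on libraries with sex or markers against the label were chosen after seeing the data. Adora2a had no count in 32 of 51 hypothalamic libraries.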
